A study of Homo sapiens with 2 samples.

Results

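The genes described here encode the plasminogen activation system at the cell surface: the activators PLAU and PLAT, the receptor PLAUR, the serpin inhibitors SERPINE2 and SERPINB2, and the plasminogen-binding annexin ANXA2. They were chosen by name, as a list of 6 genes, with earlier results of these data known. Every probe set that the platform's annotation pairs with 1 of them alone was taken. Of the 6 genes, 5 had such a probe set, out of 19775 genes in all, with 12 probe sets between them: 2 for PLAU, 1 for PLAT, 3 for PLAUR, 2 for SERPINE2 and 4 for ANXA2. No probe set was paired with SERPINB2 in the annotation used, so it was not analysed here, and 1 further probe set that lists ANXA2 together with another gene was left out.

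The cells were MDA-MB 231, an invasive human breast cancer line without estrogen receptor, and the series asks which genes S100A7 regulates in them. One stable line carried S100A7 (psoriasin, a small calcium-binding protein of inflamed skin) cloned into the plasmid pIRES2-EGFP, and the other carried pIRES2-EGFP alone, so EGFP is common to both. Each was measured on 1 Affymetrix array, and the labels do not say whether a line was 1 clone or a pool. With 1 array per group there is no replicate check and no test: a difference between the arrays may come from S100A7, from the selection of the lines or from the culture, and these cannot be told apart.

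Plasminogen activation turns the inactive plasma protein plasminogen into plasmin, a broad protease that dissolves fibrin and degrades matrix proteins. Urokinase (uPA, from PLAU) does this on the cell surface, held by its receptor uPAR (from PLAUR), which has a lipid anchor and no cytoplasmic part, whereas tissue-type activator (tPA, from PLAT) works mainly on fibrin and on surface annexin A2. Serpins trap the activators in covalent complexes that are taken up by receptors of the LDL receptor family. In breast cancer, uPA and its receptor are known for their link with invasion, and MDA-MB 231 is a line often used to study them.

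The promoters shown are those of the receptor PLAUR, which had the largest difference, of its ligand PLAU, which was nearly level, and of ANXA2, whose 3 bright probe sets lay close together. They are RefSeq sequences on GRCh38.p14, 250 bases before to 50 after a start site, written 5′ to 3′ on the gene's strand, with matches to 3 motifs in capitals. PLAUR lies at chr19:43670120-43670419 (minus strand), the upstream and downstream starts of PLAU at chr10:73910360-73910659 and chr10:73910882-73911181 (plus strand), and ANXA2 at chr15:60397937-60398236 (minus strand).
PLAUR: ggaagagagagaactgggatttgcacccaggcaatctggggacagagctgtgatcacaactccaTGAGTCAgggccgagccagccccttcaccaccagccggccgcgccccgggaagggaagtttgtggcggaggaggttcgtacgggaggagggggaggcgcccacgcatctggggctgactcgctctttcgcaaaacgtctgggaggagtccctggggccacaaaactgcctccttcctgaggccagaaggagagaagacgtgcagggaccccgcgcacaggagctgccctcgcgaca
PLAU upstream start: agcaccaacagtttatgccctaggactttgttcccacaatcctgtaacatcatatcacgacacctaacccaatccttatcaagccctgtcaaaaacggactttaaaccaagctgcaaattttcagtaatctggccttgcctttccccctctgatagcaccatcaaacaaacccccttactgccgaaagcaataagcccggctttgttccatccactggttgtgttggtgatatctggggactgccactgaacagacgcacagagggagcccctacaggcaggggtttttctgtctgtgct
PLAU downstream start: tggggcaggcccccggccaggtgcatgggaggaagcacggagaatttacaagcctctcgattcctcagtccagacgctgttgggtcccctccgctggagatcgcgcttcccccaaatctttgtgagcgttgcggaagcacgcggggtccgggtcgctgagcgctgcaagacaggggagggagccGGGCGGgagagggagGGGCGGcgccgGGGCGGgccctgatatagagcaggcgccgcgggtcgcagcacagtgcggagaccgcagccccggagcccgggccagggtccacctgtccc
ANXA2: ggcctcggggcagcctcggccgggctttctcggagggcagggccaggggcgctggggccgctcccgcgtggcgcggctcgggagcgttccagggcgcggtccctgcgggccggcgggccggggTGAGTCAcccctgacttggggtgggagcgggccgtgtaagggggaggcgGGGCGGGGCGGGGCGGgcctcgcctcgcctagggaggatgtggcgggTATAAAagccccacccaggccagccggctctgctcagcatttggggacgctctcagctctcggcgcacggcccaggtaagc

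The motifs searched on both strands were TGANTCA for AP-1, GGGCGG for the Sp1 GC box and TATAAA for the TATA box. PLAUR held 1 AP-1 match, TGAGTCA, whose first base is at -186 from the start site, and no match to the other motifs. ANXA2 held 1 AP-1 match with the same letters at -127, 1 TATA box at -31 and 3 GC boxes, each of which shares its end base with the next. The downstream start of PLAU held 3 GC boxes, and its upstream start held 0 matches. Of all 35116 promoters in the table, 7.71% held the AP-1 letters, 45.0% the GC box and 11.5% the TATA box. These matches describe the windows only.

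Several facts about the arrays bear on the values. S100A7 itself read 13232 in S100A7 cells and 11.99 in vector cells, where it was below the floor of 71.0 set for the vector array (69.0 for the S100A7 array). Those floors are each array's 50th percentile and stand in for a detection call. Values under a floor were set to it, which makes the fold a minimum, marked "at least". Among all 12688 genes measured above a floor, the median log2 ratio of S100A7 over vector was -0.04. The 4 markers of the line with a named probe set (VIM, CD44, KRT18 and CAV1) read 12481 to 35575 in S100A7 cells and 11465 to 38087 in vector cells. Of 6 genes listed as low or absent in the line, ESR1, PGR and CDH1 lay under the floor on each array. The other 3 were above it on both: EPCAM read 513 in S100A7 cells and 544 in vector cells, ERBB2 read 539.8 in S100A7 cells and 497 in vector cells, and GATA3 read 752 in S100A7 cells and 719.7 in vector cells. PTPRC, TYROBP, LYZ, CD14 and CD3E, the leukocyte markers with a named probe set, were below the floor on both arrays, and the red cell gene HBB, listed with them, read 82.9 in S100A7 cells and 115 in vector cells. Of 3 endothelial markers, 2 reached the floor in S100A7 cells and 1 in vector cells (PECAM1 at 168 in S100A7 cells and 132 in vector cells, CDH5 at 79.0 in S100A7 cells and 24.8 in vector cells). All 4 fibroblast markers were below it on both arrays.

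The receptor gene PLAUR was lower in S100A7 cells by each of its 3 probe sets, and it was the member with the largest difference. Probe set 210845_s_at, its brightest, read 4300.1 in S100A7 cells and 8260.3 in vector cells, 1.92-fold lower (log2 ratio -0.94). Probe set 211924_s_at read 3237 in S100A7 cells and 6420.2 in vector cells, 1.98-fold lower (-0.99). Probe set 214866_at read 688 in S100A7 cells and 1629 in vector cells, 2.37-fold lower (-1.24). The 3 probe sets thus kept 42.2% to 52.1% of the vector intensity, all were far above the floor on both arrays, and 1 of them passed 2-fold.

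**Figure D1:**
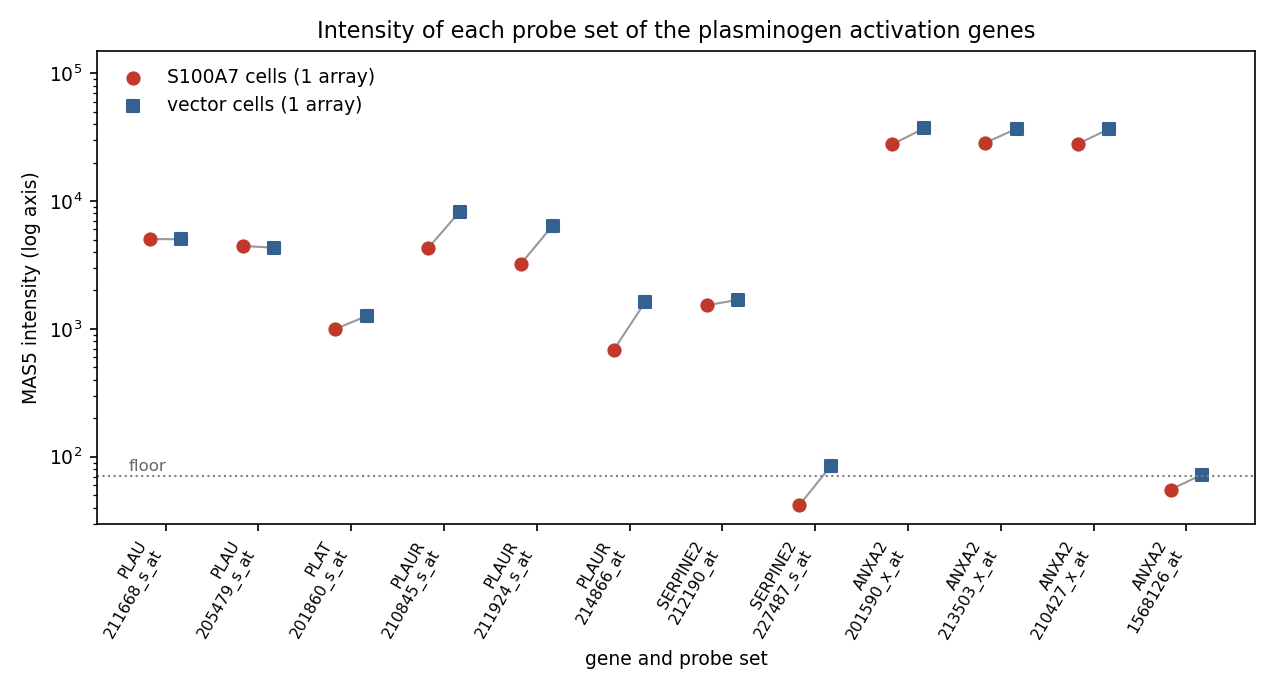
MAS5 intensity (log axis) of each of the 12 probe sets of the 5 measured genes, with S100A7 cells as red circles and vector cells as blue squares, 1 array each, joined by a grey line; the dotted line is the floor of the vector array. The lines of all 3 PLAUR probe sets are steep, those of PLAU are flat, and the dimmest probe set of ANXA2 lies near the floor. The line of the second SERPINE2 probe set is steep too, from 41.9 in S100A7 cells to 84.8 in vector cells, across the floor.

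The other genes on the arrays give the background for the agreement of these probe sets. Of 3042 genes with 3 or more measured probe sets, 29 had every probe set at least 1.5-fold lower in S100A7 cells, or 0.953%, and PLAUR was 1 of the 29. That rule was chosen after the values had been seen, so it places PLAUR and does not test it. By its brightest probe set PLAUR ranked 342 from the lowest of the 12688 measured genes, just short of 2-fold, a size that 2.25% of genes reached in that direction. Bright genes varied less than dim ones: of the 832 other genes within 0.5 log2 units of PLAUR's mean log2 intensity, 5% lay below -0.57 and 1 had a log2 ratio as low as that of PLAUR.

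**Figure D2:**
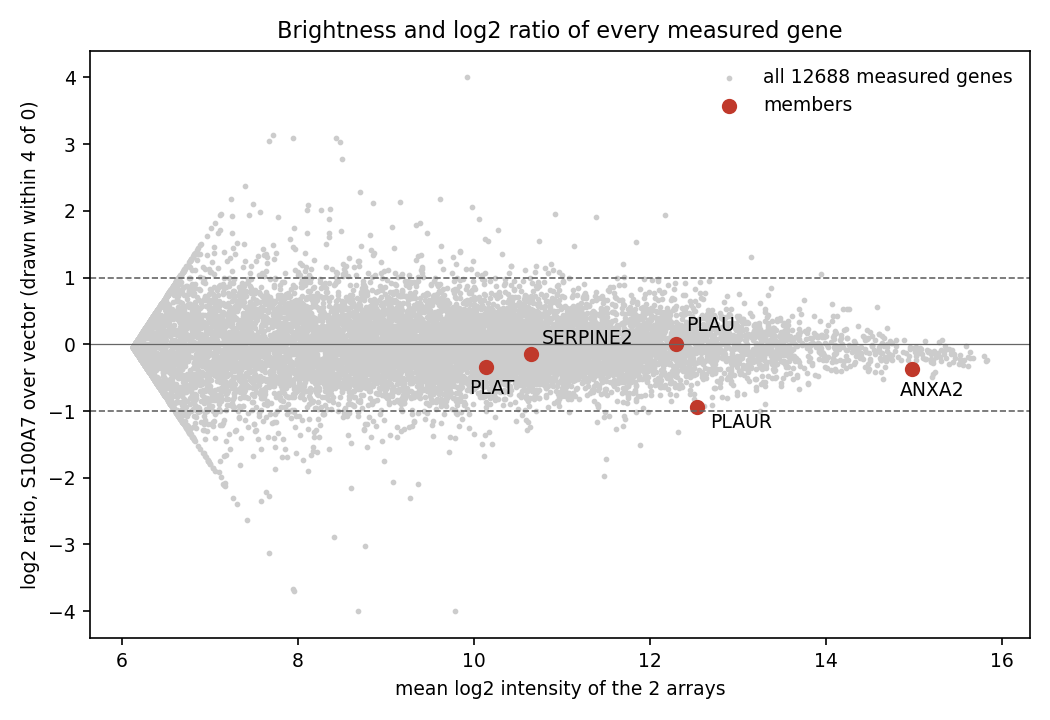
Mean log2 intensity of the 2 arrays (horizontal axis) against the log2 ratio of S100A7 over vector (vertical axis, values beyond 4 drawn at 4) for all 12688 measured genes in grey, with the 5 members in red and dashed lines at 2-fold. PLAUR, at -0.94, lies at the lower edge of the genes of its brightness, while PLAU, PLAT and SERPINE2 lie within the cloud.

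Log2 ratios differed by chromosome on these arrays, and over the 909 measured genes of chromosome 19, where PLAUR lies, their median was -0.19. The 40 measured genes nearest to it, 20 on each side, had a median of -0.25, and 31 of them were below 0. PLAUR was lower than each of the 40, which ran from -0.94 to 0.64, although the lowest of them, ZNF283, was nearly level with it. With the neighbours' median subtracted, its 3 probe sets stood at -0.69, -0.74 and -0.99, or 1.61-fold, 1.67-fold and 1.99-fold lower, so none passed 2-fold. Whether a change in the copy number of this region has a part in the result was not tested.

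**Figure D3:**
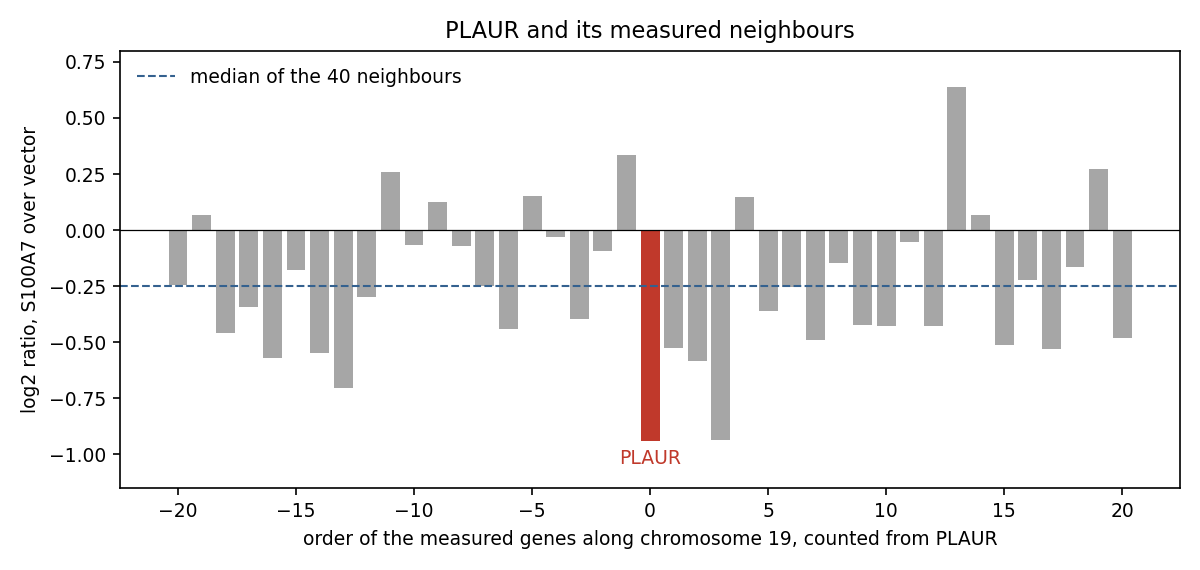
Log2 ratio of S100A7 over vector (bars from 0) for PLAUR in red and for the 20 measured genes on each side of it in grey, in their order along chromosome 19. The dashed line is the median of the 40 neighbours, -0.25; the bar of PLAUR reaches -0.94, and 31 of the neighbours point down.

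The gene of the receptor's ligand was nearly level on the 2 arrays. PLAU, which encodes urokinase, read 5046 in S100A7 cells and 5027 in vector cells with probe set 211668_s_at (log2 ratio 0.01). Its other probe set, 205479_s_at, read 4462 in S100A7 cells and 4314 in vector cells (0.05). Both differences are small beside the standard deviation between probe sets of the same gene, 0.36 on the log2 scale over 6465 genes, and the sign for 211668_s_at turned to -0.01 with quantile normalization and to -0.19 with the neighbours' median subtracted. The log2 ratio of PLAUR was lower than that of PLAU by 0.95, a difference that does not depend on how the arrays are scaled to each other by a factor. Since PLAU's own neighbours on chromosome 10 had a median of 0.19, the gap between the 2 genes is smaller relative to neighbours, at -0.69 for PLAUR and -0.19 for PLAU.

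PLAT, the tissue-type activator, was measured by 1 probe set. It read 999 in S100A7 cells and 1263 in vector cells, 1.26-fold lower (log2 ratio -0.34). Of 2185 other genes within 0.5 log2 units of its brightness, 455 were as low or lower, so its difference was a common one on these arrays. Its 40 neighbours on chromosome 8 had a median of 0.25, and with that subtracted PLAT stood at -0.59, or 1.51-fold lower. No other probe set was there to check it.

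SERPINE2, the inhibitor protease nexin-1, which traps urokinase, tPA and thrombin, was close to level by its brighter probe set. That probe set, 212190_at, read 1529 in S100A7 cells and 1690 in vector cells, 1.11-fold lower (log2 ratio -0.14). The other, 227487_s_at, read 41.9 in S100A7 cells, below the floor, and 84.8 in vector cells, which gives at least 1.23-fold lower. Taken without a floor, that dim probe set was 2.02-fold lower, so the count of members past 2-fold depends on the floor there.

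ANXA2, which binds plasminogen and tPA as a complex with S100A10, was among the brightest genes on either array and slightly lower in S100A7 cells. Probe set 201590_x_at read 27769 in S100A7 cells and 36987 in vector cells (log2 ratio -0.41). Probe set 210427_x_at read 28014 in S100A7 cells and 36748 in vector cells (-0.39). Probe set 213503_x_at read 28519 in S100A7 cells and 36781 in vector cells (-0.37). These 3 lay close together, but their suffix _x_at marks probes that can match related transcripts. The only probe set without it, 1568126_at, read 55.4 in S100A7 cells and 72.5 in vector cells, near the floor on both. The pseudogene ANXA2P2, also read by an _x_at probe set, stood at 9209 in S100A7 cells and 13045 in vector cells (-0.50), and signal shared between the gene and its copies cannot be told apart.

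The size of the ANXA2 difference moved with the reference it was set against. The 117 other genes within 0.5 log2 units of its brightness had a median of -0.13, 8 of them as low as ANXA2 or lower. The 420 measured genes of chromosome 15, where it lies, had a median of -0.33, and its 40 neighbours -0.24. With quantile normalization ANXA2 stood at -0.24, and with the neighbours subtracted at -0.12.

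Across the members, then, 1 of 12 probe sets was at least 2-fold lower in S100A7 cells, where 2.13% of all measured probe sets with 1 gene were, and 0 were at least 2-fold higher, where 2.2% were. By brightest probe set 4 of the 5 genes had a log2 ratio below 0 and 0 were 2-fold apart. The 5 log2 ratios had a median of -0.34, against -0.04 for all measured genes, in the order PLAUR, ANXA2, PLAT, SERPINE2 and PLAU from lowest to highest. Neighbours in that order other than PLAUR differed by 0.03 to 0.19, less than the standard deviation of 0.36 between probe sets of a gene. Between the members' own probe sets that standard deviation was 0.14, over 4 genes. The gaps from PLAT to SERPINE2 (0.19) and from SERPINE2 to PLAU (0.15) lie above it. PLAUR was 0.57 below ANXA2, the next.

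The wider plasminogen system was described by 68 other genes, of which 63 had a named probe set and 44 were measured. Of the 44, 1 was at least 2-fold higher in S100A7 cells, where 1.8% of all measured genes were, and 1 at least 2-fold lower, where 2.25% were. Their median log2 ratio was 0.18, against -0.04 for all measured genes, and 28 were above 0. Apart from those named because of the list they belong to, genes in the following paragraphs were picked after their values had been seen.

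**Figure D4:**
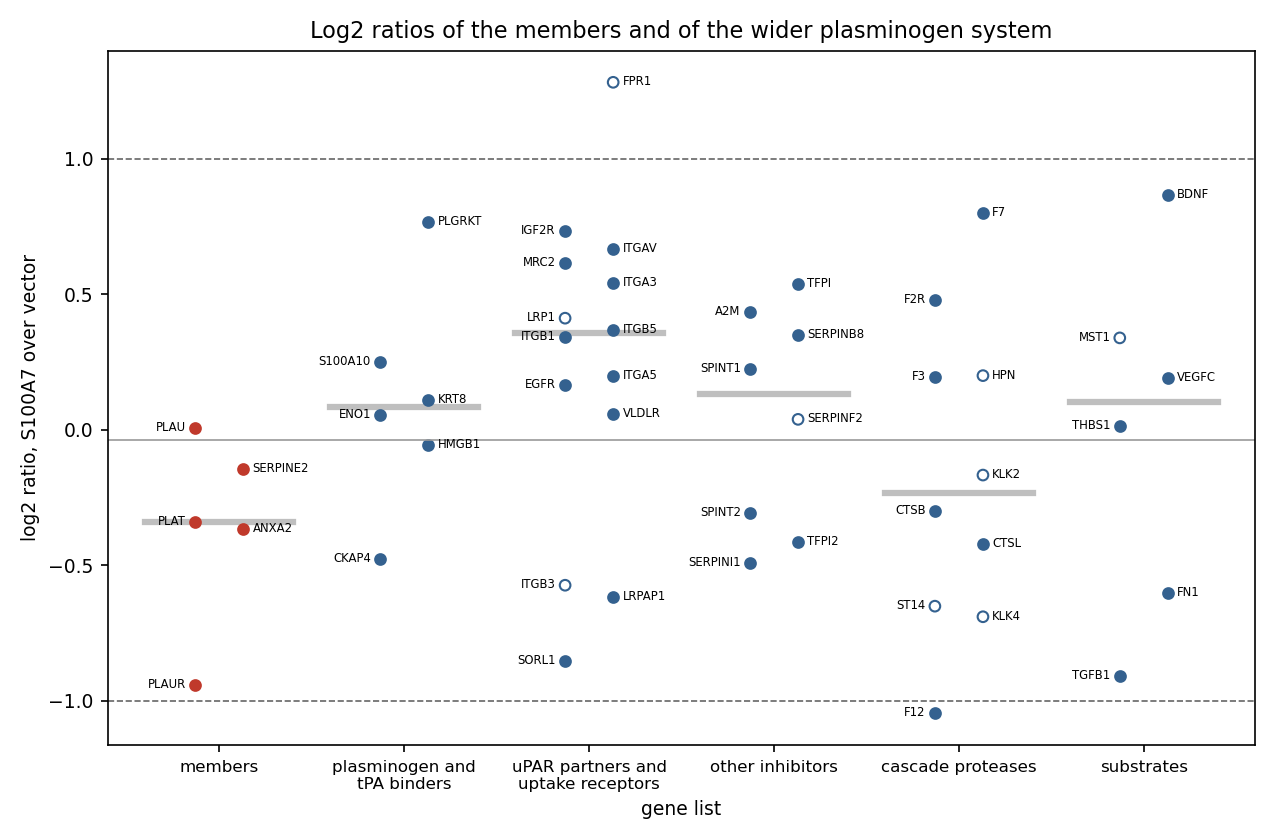
Log2 ratio of S100A7 over vector for the 5 members (red) and for the measured genes of 5 lists of the wider plasminogen system (blue), 1 point per gene by its brightest probe set, with open points where 1 side is at the floor. Thick grey bars are list medians, the thin line is the median of all measured genes (-0.04) and dashed lines mark 2-fold; FPR1 and F12 lie outside them, and PLAUR just inside.

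Among surface proteins that hold plasminogen or tPA, 0 of 6 measured genes were 2-fold apart and the median was 0.08. PLGRKT, a membrane receptor for plasminogen, was the highest, at 1286 in S100A7 cells and 755 in vector cells (log2 ratio 0.77, 1 probe set). CKAP4, which binds tPA on smooth muscle cells, was the lowest, at 4615 in S100A7 cells and 6418 in vector cells (-0.48). S100A10, the partner of annexin A2 and a relative of S100A7, read 28993 in S100A7 cells and 24382 in vector cells (0.25), so the log2 ratios of the 2 parts of the annexin complex had opposite signs. With neighbours subtracted, they stood at 0.10 for S100A10 and -0.12 for ANXA2, whose bright _x_at probe sets can also match its pseudogenes. The second probe set of S100A10 was at 0.21.

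The integrins and other receptors that work with uPAR or clear its ligands had a median of 0.36 over 14 measured genes, 11 of them above 0. The median of all measured genes was -0.04. FPR1, a formyl peptide receptor that responds to cleaved uPAR, was the 1 gene at least 2-fold higher: it read 173 in S100A7 cells and 65.0 in vector cells, below the floor, at least 2.43-fold higher. It was measured by 1 probe set with the suffix _s_at, while its other probe set was below the floor on both arrays. Of 6 integrin subunits 5 were above 0, among them ITGAV at 4143 in S100A7 cells and 2612 in vector cells (0.67) and ITGA3 at 4979 in S100A7 cells and 3419 in vector cells (0.54). The 3 measured of 7 probe sets of ITGB1, the common beta chain, ran from 0.34 to 0.96, whereas the 4 of ITGB5 ran from -0.55 to 0.90. With the median of chromosomal neighbours subtracted, ITGB1 stood at 0.02 by its brightest probe set, ITGAV at 0.63 and ITGA3 at 0.45.

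By the brightest probe set, the measured uptake receptors were above 0 apart from SORL1. IGF2R, the mannose 6-phosphate receptor, which binds uPAR, read 3149 in S100A7 cells and 1892 in vector cells (0.73), and its other measured probe set was at 0.71. MRC2, the collagen receptor also called uPARAP because it associates with uPAR, read 1013 in S100A7 cells and 661 in vector cells (0.62), with its other probe set at 0.95. SORL1, which takes up complexes of urokinase with its inhibitor, read 307 in S100A7 cells and 555 in vector cells (-0.85), while its other probe sets were at -0.40 and 0.25. VLDLR was at 0.06. Relative to neighbours, IGF2R stood at 0.52, MRC2 at 0.31, SORL1 at -0.73 and VLDLR at 0.08. None of these was called 2-fold apart by the brightest probe set, though the value of LRP1 is only a bound.

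Of the other inhibitors 8 were measured, 0 were 2-fold apart, and their median was 0.13. TFPI, the inhibitor of the tissue factor pathway, was the highest, at 1610 in S100A7 cells and 1108 in vector cells (0.54), and its 5 probe sets ran from -0.06 to 0.70. SERPINI1, neuroserpin, an inhibitor of tPA in the nervous system, was the lowest, at 188 in S100A7 cells and 264 in vector cells (-0.49). Of SERPINB8, a serpin related to SERPINB2, the brighter probe set read 466 in S100A7 cells and 365 in vector cells (0.35) and the other was at -0.21. With neighbours subtracted, TFPI stood at 0.49, SERPINI1 at -0.64 and SERPINB8 at -0.04 by the brightest probe set.

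Plasminogen itself was not measured: the 3 probe sets of PLG read 5.78 to 31.7 in S100A7 cells and 10.2 to 38.1 in vector cells, all below the floor. In the blood, the protein comes mainly from the liver. Among 10 measured proteases and receptors of the cascade, with a median of -0.23, F12 was the 1 gene at least 2-fold lower. F12, coagulation factor XII, read 341 in S100A7 cells and 704 in vector cells, 2.07-fold lower on 1 measured probe set, and was under 2-fold with a pseudocount of 32 (-0.98) or with neighbours subtracted (-0.88). F7, coagulation factor VII, was the highest, at 144 in S100A7 cells and 82.6 in vector cells (0.80), near the floor. CTSB, the cathepsin that can activate pro-urokinase, was at -0.30, with its 5 probe sets between -0.36 and 0.35. With neighbours subtracted, CTSB stood at -0.03.

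Substrates of urokinase and plasmin had a median of 0.10 over 6 measured genes, and 0 were 2-fold apart. BDNF, a neurotrophin whose precursor plasmin cleaves, was the highest, at 338 in S100A7 cells and 186 in vector cells (0.86), but its other probe set was at -0.09. TGFB1, whose latent form plasmin can release, was the lowest, at 940.5 in S100A7 cells and 1764 in vector cells (-0.91), and its dimmer probe set went the other way (0.64). FN1, fibronectin, was lower by each of the 5 of its 7 probe sets that were measured, from -1.18 to -0.31, with the brightest at 864 in S100A7 cells and 1312 in vector cells.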

How the data were processed

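Total RNA of 2 stable MDA-MB 231 lines was measured, 1 Affymetrix array for S100A7 cells and 1 for vector cells. The deposited values are 1 linear intensity per probe set, made with MAS5 per the submitters' processing notes; its version and scaling target, and detection calls, were not found in the sources used. Both arrays had a mean of 500.1 once the outer 2% at either end was trimmed, so the intensity values were used as the authors deposited them. No columns were left unused.

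Gene names came from the platform's annotation, updated by Entrez identifier to symbols on GRCh38.p14: 41091 had 1 gene, 1801 several and 11721 none listed, with 62 controls. The floor was the 50th percentile of an array's non-control probe sets, those that reached it on either array counted as measured (24438 with 1 gene), and values under it were set to it. A gene's value is that of its brightest measured probe set, by mean log2 intensity. The number of arrays limits the precision: no spread between cultures was measured, so calls are by size, 2-fold.

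The members and lists were chosen with earlier results of these data known. The rule for named genes was all members, S100A10 and 1 further partner (not analysed here), up to 3 listed genes per list and direction at least 2-fold apart, and otherwise each list's highest and lowest gene; likeness of pattern across samples could not be measured with 2 arrays. Alternatives were median centring, quantile normalization, other floors, no floor, a pseudocount of 32, subtraction of the median of 40 chromosomal neighbours, the median over probe sets, leaving out _x_at and _s_at probe sets, and 1.5-fold and 3-fold thresholds. Computations used Python 3.11.15, numpy 2.4.6 and pandas 2.3.3, and the counting steps were tested on simulated data.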

Additional observations from a re-analysis of the deposited data

How the results depend on the processing

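The log2 ratio of PLAUR was below 0 under all 9 alternatives that gave it a value, from -1.24 to -0.69, and so were those of ANXA2 (-0.38 to -0.07), SERPINE2 (-0.22 to -0.10) and, under 8, PLAT (-0.59 to -0.30). The -0.07 of ANXA2 comes from its dim probe set 1568126_at, whose S100A7 value was set to the floor. That probe set stood at 0.17 with neighbours subtracted, so it is no check of the sign of ANXA2. PLAU ranged from -0.19 to 0.05 and was above 0 under 6 of 8. Other floors and no floor left all these gene values unchanged, because the brightest probe sets lie above every floor used. Those alternatives are therefore no check of the signs. No member moved by as much as the standard deviation of 0.36 seen between probe sets of a gene over all genes. Between the members' own probe sets that value was only 0.14, over 4 genes, and PLAUR, ANXA2, PLAT and PLAU each moved by more under some alternative. PLAU and PLAT have no value without the suffixes _x_at and _s_at. Of the counts, 0 member probe sets were 2-fold higher under each of the alternatives that count probe sets, which leaves out the median over probe sets. The 1 member probe set at least 2-fold lower became 2 with a floor at the 30th percentile or with no floor, 3 at 1.5-fold, 0 at 3-fold and 0 with neighbours subtracted. In the wider system, the 1 higher gene became 3 with a floor at the 30th percentile, 0 at the 70th, 6 with no floor, 2 with a pseudocount, 0 without the shared suffixes, 7 at 1.5-fold and 0 at 3-fold. The count of lower genes, 1, became 4 with a floor at the 30th percentile, 3 with no floor, 2 with a pseudocount, 0 with neighbours subtracted, 7 at 1.5-fold and 0 at 3-fold. F12, at -0.98 with the pseudocount, is not among the 2 counted there. Lower floors admit more dim genes (54 measured at the 30th percentile and 63 with none, against 31 at the 70th). Without the shared suffixes FPR1 has no measured probe set, and with neighbours subtracted F12 is at -0.88. The 1.5-fold and 3-fold counts differ by the threshold itself. The pseudocount raises no value to a floor, and the genes it adds read below the floor on 1 array. They are LRP1 among the higher genes (94.5 in S100A7 cells, 22.7 in vector cells). Among the lower genes KLK4 (2.04 in S100A7 cells, 111 in vector cells) and KLK2 (5.17 in S100A7 cells, 77.5 in vector cells) come in. The median of the wider system stayed between 0.13 and 0.22. No paired analysis was possible because each group has 1 array.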

Other observations

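Other families to which the members belong add some values. Among relatives of uPAR that share its LY6 fold, 6 of 12 listed genes were measured, with a median log2 ratio of -0.30 and 5 below 0. LY6E, an interferon-inducible surface protein, was the 1 gene at least 2-fold lower, at 166 in S100A7 cells and 357 in vector cells (2.15-fold), where 2.25% of all measured genes were that much lower. It was under 2-fold with a pseudocount (-0.98) and with neighbours subtracted (-0.72), and a floor at the 70th percentile leaves only a bound of at least 1.26-fold lower. LY6K, a cancer-testis antigen picked after its value was seen, read 251 in S100A7 cells and 456 in vector cells (-0.86). CD59, which blocks the complement pore and is also lipid-anchored, read 7878 in S100A7 cells and 9781 in vector cells (-0.31), with its 5 probe sets from -0.41 to 0.38. PINLYP, a uPAR-like gene close to PLAUR on chromosome 19, was at 0.15. LY6E, LY6K and LYNX1 lie on chromosome 8, where their neighbours had medians of -0.39, -0.35 and -0.36. Relative to neighbours, LY6K stood at -0.50 and CD59 at -0.52, but LYNX1 at 0.08, LYPD6 at 0.13 and PINLYP at 0.43.

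Of 10 measured annexin genes and pseudogenes, 0 were 2-fold apart, and their median was -0.03. ANXA7 was the highest, at 5064 in S100A7 cells and 3876 in vector cells (0.39), and the pseudogene ANXA2P3 the lowest, at 65.7 in S100A7 cells, below the floor, and 134 in vector cells (at least 1.94-fold lower). ANXA1, a bright annexin, read 17691 in S100A7 cells and 22276 in vector cells (-0.33), near the value of ANXA2. Of the 9 serpin genes listed from the 18q21 cluster that holds SERPINB2, 2 were measured, SERPINB8 (0.35) and SERPINB12 (76.6 in S100A7 cells and 90.2 in vector cells, -0.24). With neighbours subtracted, SERPINB8 stood at -0.04 and SERPINB12 at -0.64.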
